A study of Mus musculus with 1536 samples.

Results

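Serotonin neurons with high levels of Npas3 and Htr1d were examined in single-cell RNA-seq libraries of the adult mouse raphe. The cells were chosen by their measured levels of 5 genes, given as CPM, the reads of a gene scaled to a common total of reads on genes in each cell. A member had at least 5 CPM of Npas3, at least 20 CPM of Htr1d, and less than 5 CPM of each of Irx2, Zeb2 and Npy2r. Of the 709 cells on 11 plates, 78 were members (11.0%, exact 95% interval 8.79 to 13.5), and the other 631 cells of the same plates served as the comparison. The whole series holds 999 cells. The 5 genes of the gate were left out of every result below, since their levels chose the cells.

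Mice were C57BL/6J animals aged 40 to 45 days that carried Sert-Cre and the Ai14 reporter, so that cells in which the Sert (Slc6a4) gene had driven Cre made the red protein tdTomato. Single tdTomato-positive cells were sorted into wells, and each gave 1 Smart-seq2 library, which holds full-length polyadenylated RNA without molecular identifiers. The 11 plates came from a dissection that the labels give as the DR as a whole and that, by the study's methods, also held the median raphe (MR), and 5 other plates with 290 cells came from the principal dorsal raphe (pDR) alone. All cells of both dissections shared the same genotype and strain. Each dissection pooled cells from several brains by the study's account, but the labels tie no cell to an animal, so that each dissection was treated as 1 sample, no p-value was computed, and each difference is given with how many plates showed its direction. The sort holds only cells in which the Sert promoter had driven Cre at some time, and says nothing about where in the raphe a member lay.

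Serotonin neurons of the raphe share the enzymes and transporters that make, store and take up serotonin, and differ in the other transmitters, peptides, receptors and transcription factors that they make. NPAS3 and its relative NPAS1 are transcription factors of the bHLH-PAS family, which bind DNA as pairs with ARNT or ARNT2. HTR1D is a serotonin receptor coupled to inhibitory G proteins, which acts in part as an autoreceptor on the terminals of serotonin neurons. The study asked how serotonin neurons of the raphe fall into types, and the comparison of the members with the rest addresses what else is shared by cells that carry this pair of genes.

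All 78 members had reads of each of Tph2, Fev, Slc6a4 and Slc18a2, the defining genes of serotonin neurons, as did 629 of the 631 other cells. The number of reads on genes had a median of 797810 in the members (205682 to 1624878) and of 873813 in the other cells (96834 to 2493904), and the medians of detected genes were 9272 and 9506. Members made up between 3.33% and 17.6% of the cells of a plate, with 1 member on each of plates 56 and 67, 3 on plate 55, 4 on plate 48, and 8 to 13 on the other 7 plates. Counts by plate below refer to the 9 plates with at least 3 members. The gate rested on few reads of Npas3, with a median of 15.0 reads and at least 2 in a member, and on more of Htr1d, with a median of 63.0 and at least 12. Members just inside the Npas3 threshold had 6.45, 6.70 and 6.88 CPM, and the nearest cells that missed on Npas3 alone had 4.93, 4.84 and 4.81 CPM. For Htr1d the values just inside were 20.2, 20.7 and 21.9 CPM, and those just outside were 18.6, 14.1 and 9.95 CPM. Of the cells that missed on 1 of the 2 genes alone, 108 missed on Npas3, 78 of them without a read of it, and 7 missed on Htr1d.

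To compare the members with the other cells, the log2 ratio of mean CPM plus 1 was computed for the 9892 genes with a mean of at least 5 CPM in either set. A gene was counted as past the fold at a log2 ratio of at least 1 or at most -1. There were 65 genes past the fold in the direction of the members (0.657% of genes tested) and 178 in the direction of the other cells (1.8%), and the median log2 ratio of all genes tested was -0.04. Of these, 29 of the higher and 94 of the lower genes had the same direction on all 9 plates. The split depended on how cells were averaged. With the difference of mean ln(CPM + 1) in place of the ratio of means, 161 genes were higher and 119 lower.

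The gene with the largest log2 ratio among the transcription factors was Npas1, the closest relative of the gate gene Npas3, on chr7:16455721-16477728 (GRCm38/mm10, GENCODE M21, minus strand). Its mean was 41.7 CPM in the members and 3.78 CPM in the other cells, a log2 ratio of 3.16 (SD over plates 1.60, n = 9 plates). Plate means of the members ran from 0 through a median of 33.0 to 103 CPM, and those of the other cells from 0.0209 through 4.65 to 6.94 CPM. The members were above the whole range of the other cells on 8 plates, and on plate 48 none of the 4 members had a read. Reads of Npas1 were present in 29 of 78 members (37.2%, 26.5 to 48.9) against 5.39% (3.76 to 7.45) of the other cells, so that most members lacked it.

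Nell1 and Dlk1 marked more of the cells. Nell1, which encodes a secreted protein with EGF-like repeats, lies on chr7:49974864-50866608 (plus strand) and overlaps a gene on the opposite strand, Nell1os, from which its reads cannot be told apart. Its mean was 109 CPM in the members and 20.7 CPM in the other cells, with plate means of 8.17 to 131 CPM (median 115) against 6.83 to 34.2 CPM (median 21.3). Plate 48 again stood apart, with 8.17 CPM in the members and 13.9 CPM in the rest, and the other 8 plates were higher in the members. Dlk1, an imprinted gene for a membrane ligand related to Delta, had means of 170 and 41.4 CPM, and plate means of 2.05 to 194 CPM (median 179) against 18.4 to 76.8 CPM (median 42.4). For Dlk1 the exception was plate 55, with 2.05 CPM in its 3 members, and the members of the other 8 plates exceeded the other cells of every plate.

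Among the 25 leading genes, which had to be higher in the members on all 9 plates, a mean of at least 20 CPM and reads in at least 50% of members were required, and the log2 ratios ran from 0.85 to 2.03. The first was Zar1, which is best known for its role in the egg, with plate means of 13.7 to 60.8 CPM (median 28.3) in the members against 3.52 to 11.4 CPM (median 6.53) in the other cells. Sema5a, which encodes a transmembrane semaphorin that steers axons, had plate means of 30.6 to 119 CPM (median 75.5) against 12.8 to 29.9 CPM (median 21.6), and reads in 93.6% of members (85.7 to 97.9) against 51.7% of other cells (47.7 to 55.6). The members of every plate lay above the other cells of all plates for both genes, although Sema5a overlaps an annotated gene on the opposite strand, whose reads cannot be told apart from its own. Arhgap36, which encodes an inhibitor of protein kinase A, was at 402 to 588 CPM (median 448) in the members against 140 to 322 CPM (median 181), again without overlap.

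Nxph4, Syndig1l, Sln and Ramp1 were further leading genes. Nxph4, a gene of the neurexophilin family, had means of 131 and 51.0 CPM. Syndig1l, a relative of a regulator of AMPA receptors, had means of 47.6 and 17.6 CPM. Sln, which encodes the calcium pump inhibitor sarcolipin, had means of 53.9 and 19.7 CPM. These 3 genes had log2 ratios of 1.35, 1.38 and 1.41. Ramp1, which encodes a partner protein that alters the ligands a receptor of the calcitonin family can bind, had plate means of 13.4 to 57.9 CPM (median 26.3) in the members against 7.29 to 13.4 CPM (median 10.1) in the rest. The remaining leading genes were Col28a1 (a collagen), Ctsz (a lysosomal protease), Rbfox1 (a splicing factor), Hs3st4 and Hs3st5 (heparan sulfate sulfotransferases), Igsf1, Gm5868, Btbd11, Hrh1, Fam84a, Pcdh10, Gabrq, Gabre, Cpq, Necab2, Zdhhc22, Tmem255a and the sodium-calcium exchanger Slc8a1. Of the 25 genes, 18 were past the fold. Syndig1l, Ctsz, Hs3st4, Hs3st5, Pcdh10, Cpq, Tmem255a and Slc8a1 overlap annotated genes on the opposite strand, as Sema5a does, and so do Stxbp6, C1ql3, B3galt1, Pcdh11x, Mctp1, Pcdh8, Enpp2 and Chrm2 among the lower genes below, which leaves their reads uncertain in the same way.

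**Figure D1:**
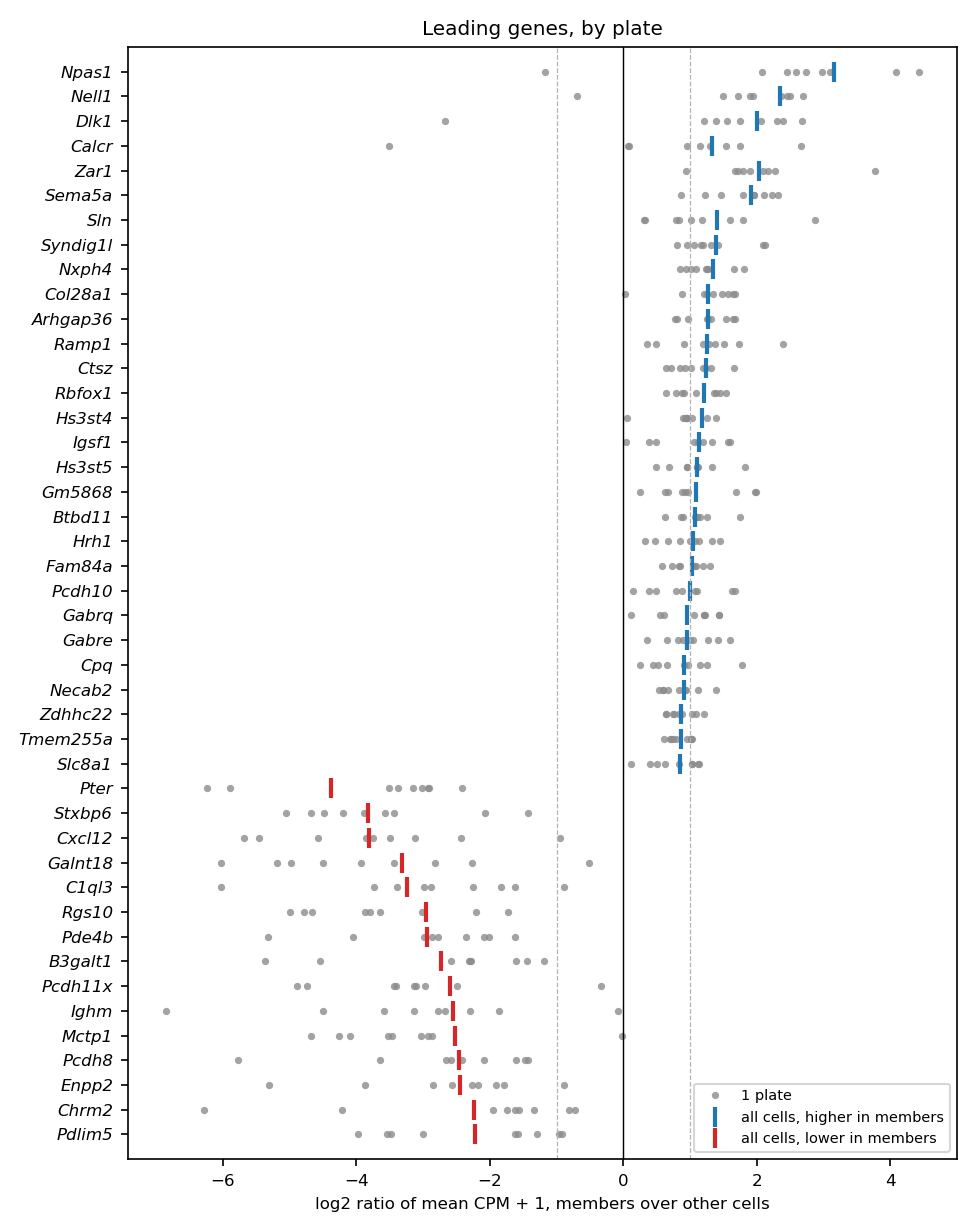
Log2 ratio of mean CPM + 1, members over other cells (x axis), for the 25 leading higher genes, the 15 leading lower genes, and Npas1, Nell1, Dlk1 and Calcr (y axis). Each grey point is 1 of the 9 plates with at least 3 members and each coloured tick is the ratio over all cells, with dashed lines at log2 ratios of -1 and 1. The 4 genes at the top each have 1 plate below 0, and the other genes keep 1 direction on all 9 plates by the rule that chose them.

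The promoters of the leading higher genes were searched for ACGTG, the core that dimers of bHLH-PAS factors with ARNT bind, since all members were chosen on a factor of this family. Either strand was counted in the 250 bases before each start of RefSeq (GRCm38.p6), and the letters also occur inside the palindrome CACGTG, so other factors share them. The motif was in a promoter of 2 of the 19 leading genes matched (10.5%) and of 4998 of all 27025 genes (18.5%). These 2 genes were Rbfox1 and Gabre. The stretch before the first start of Rbfox1, chr16:5884543-5884792 on the plus strand, is shown with the motif in capitals as an example of where the letters lie, and a match describes the letters and not a site in use.
Rbfox1: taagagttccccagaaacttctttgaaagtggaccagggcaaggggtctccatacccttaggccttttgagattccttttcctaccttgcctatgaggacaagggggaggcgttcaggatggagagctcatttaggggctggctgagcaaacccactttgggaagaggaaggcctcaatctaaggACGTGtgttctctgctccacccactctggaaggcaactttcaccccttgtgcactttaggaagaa

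To see which cells each difference came from, the other cells were split by the gate genes into a set with at least 5 CPM of Zeb2 (142 cells), a set of the rest with Irx2 at that level (141 cells), a set of the remainder with Npy2r at that level (136 cells), and a rest set of 212 cells that missed on Npas3, Htr1d or both. Against the Zeb2 set, 479 genes were past the fold in the direction of the members (4.75%) and 446 in that of the set (4.42%). Against the Irx2 set the counts were 115 (1.16%) and 158 (1.6%), against the Npy2r set 126 (1.28%) and 180 (1.83%), and against the rest set 31 (0.313%) and 191 (1.93%). All 25 leading genes were past the fold against the Zeb2 set, 17 against the Npy2r set, 10 against the Irx2 set and 5 against the rest set, and 22 of the 25 had their highest mean in the members. The 3 exceptions were Col28a1, Gabrq and Gabre, which had their highest means in the Irx2 set.

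Npas1, Nell1 and Dlk1 were compared across the same sets. The mean of Npas1 was 41.7 CPM in the members, 0.243 CPM in the Zeb2 set, 0.0106 CPM in the Irx2 set, 4.57 CPM in the Npy2r set and 8.14 CPM in the rest set. Nell1 had means of 8.76, 3.34, 24.6 and 37.6 CPM in the 4 sets in that order, and Dlk1 had 4.50, 15.5, 46.9 and 79.8 CPM. All 3 were therefore lowest in the Zeb2 or Irx2 sets and next highest in the rest set, which remained below the members on 8 of 9 plates for each. Gabrq and Gabre, which encode the theta and epsilon subunits of GABA-A receptors and lie on the X chromosome at 72825178-72842602 and 72255999-72274803, behaved in another way. They had 90.1 and 21.7 CPM in the members and 104 and 28.8 CPM in the Irx2 set, against 15.1 and 1.09 CPM in the Zeb2 set. Reads of both were present in 71 of 78 members (91.0%, 82.4 to 96.3) and in 43.6% (39.7 to 47.6) of all other cells. Pth2r, which encodes a parathyroid hormone receptor, also had a higher mean in the Irx2 set (32.1 CPM) than in the members (22.0 CPM), and only 1.21 CPM in the Npy2r set.

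**Figure D2:**
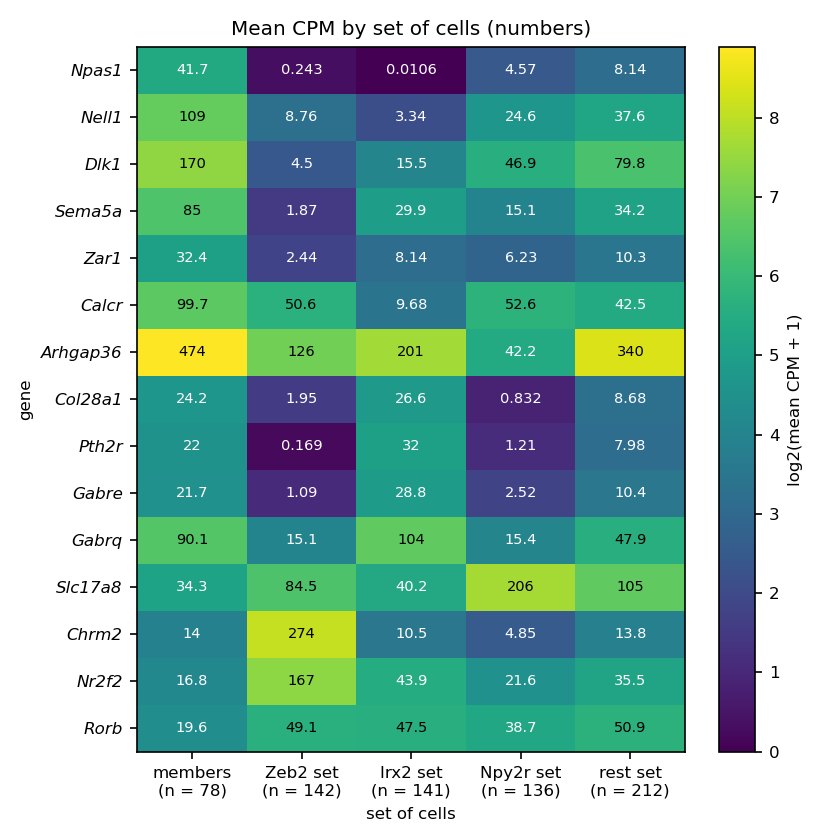
Mean CPM (numbers) of 15 genes (rows) in the members and in the 4 sets of other cells (columns, with the number of cells), with colour as log2 of mean CPM + 1. Npas1, Nell1 and Dlk1 are highest in the members, while Col28a1, Pth2r, Gabre and Gabrq are at 24.2, 22.0, 21.7 and 90.1 CPM there and somewhat higher in the Irx2 set, and Chrm2 stands out in the Zeb2 set at 274 CPM.

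The rest set was not uniform. Its 108 cells with enough Htr1d but too little Npas3 had means of 14.6 CPM of Npas1, 46.1 CPM of Nell1, 96.4 CPM of Dlk1 and 40.2 CPM of Sema5a, between those of the members and of its 97 cells with too little of both, which had 1.39, 30.0, 63.2 and 28.6 CPM. The remaining 7 cells, with enough Npas3 but too little Htr1d, had 1.32, 13.5, 55.1 and 20.6 CPM, below both. Of these 108 cells, 78 had no read of Npas3, so most of them did not lie near its threshold.

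The 15 leading lower genes, chosen with the same direction on all 9 plates and reads in at least 20% of other cells, had log2 ratios from -4.38 to -2.22. Pter (phosphotriesterase related) was at 0.107 CPM in the members and 22.1 CPM in the rest, with plate means of 0 to 0.420 CPM (median 0) against 6.24 to 74.5 CPM (median 9.42). Stxbp6, which encodes a protein that binds SNARE partners, was at 0 to 5.49 CPM (median 1.81) against 16.4 to 147 CPM (median 29.3). Cxcl12, which encodes a chemokine, was at 0 to 5.13 CPM (median 0) against 7.67 to 50.4 CPM (median 12.5), and had reads in 2 of 78 members. For all 3 the members of each plate were below the lowest plate mean of the other cells. The others were Galnt18, C1ql3, Rgs10, Pde4b, B3galt1, Pcdh11x, Ighm, Mctp1, Pcdh8, Enpp2, Chrm2 and Pdlim5.

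Most of these genes were highest in the Zeb2 set. Of the 15 genes, 11 had their highest mean in the Zeb2 set, and so did 99 of all 178 lower genes. Against the rest set alone, 12 of the 15 were still past the fold, among them Rgs10, which encodes a regulator of G-protein signaling (2.81 CPM in the members against 28.9 CPM), Pcdh11x (2.87 against 27.5 CPM) and Galnt18 (2.08 against 16.5 CPM). The other 3 were C1ql3, Ighm and Chrm2, with log2 ratios of -0.55, -0.66 and 0.02 against the rest set. Chrm2 encodes the muscarinic M2 receptor. Reads of it were present in 59.0% of members and 47.2% of other cells. Its mean was 14.0 CPM in the members and 69.6 CPM in all other cells, but 274 CPM in the Zeb2 set and 13.8 CPM in the rest set. Against the Npy2r set, at 4.85 CPM, it was higher in the members on all 9 plates, with a log2 ratio of 1.35. Without plate 51, the log2 ratios of Galnt18, Pcdh11x and Mctp1 were -4.08, -3.30 and -3.30 in place of -3.31, -2.60 and -2.52. Without plate 63, that of Cxcl12 was -4.43 in place of -3.81. Without plates 48 and 55, which held the fewest members of the 9, those of Pter, C1ql3 and Chrm2 were -3.45, -2.48 and -1.61 in place of -4.38, -3.24 and -2.24.

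Genes for serotonin synthesis, transport and identity were close to the level of the other cells. Of 18 such genes tested, none was past the fold upward and 1 downward, with a median log2 ratio of -0.001. Over all genes tested, 0.657% were past the fold upward and 1.8% downward, and each list here and below stands beside these shares. Tph2, the rate-limiting enzyme of serotonin synthesis in the brain, had plate means of 7818 to 9134 CPM (median 8358) in the members against 9025 to 11380 CPM (median 10480), a log2 ratio of -0.30 (SD 0.12, n = 9 plates) that was below 0 on all 9 plates. The homeobox gene En1 went the other way, with means of 22.0 and 13.6 CPM and a log2 ratio of 0.66 that was above 0 on all 9. It was at 22.1 CPM in the Npy2r set and 19.9 CPM in the rest set, near the level of the members, and in the pDR its log2 ratio was -0.11, with 4 of 5 plates below 0. Slc6a4, Slc18a2 and Fev had log2 ratios of -0.04, -0.09 and 0.08. The 1 gene past the fold was Tph1, at 2.79 against 7.79 CPM and lower on 7 plates. It was at 25.3 CPM in the Zeb2 set and 3.10 CPM in the rest set, against which the log2 ratio was -0.11 and not past the fold. Of the serotonin receptors outside the gate, 3 were tested. Htr1a was at 117 CPM in both sets and Htr1b at 24.4 and 22.6 CPM, while Htr5b was at 14.2 against 35.9 CPM, lower on 7 plates.

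The genes for other transmitters were at or below the level of the rest, with 3 of 7 tested past the fold downward and none upward (median log2 ratio -0.77). The shares of all genes tested were 1.8% downward and 0.657% upward. Slc17a8, which encodes the vesicular glutamate transporter Vglut3, had plate means of 7.99 to 125 CPM (median 29.0) in the members against 90.7 to 165 CPM (median 100), and the members were below all other plates' values on 8 of 9 plates. Reads of it were present in 37 of 78 members (47.4%, 36.0 to 59.1) against 76.2% (72.7 to 79.5). Its mean in the members was close to that of the Irx2 set (34.3 and 40.2 CPM) and was far from that of the Npy2r set (206 CPM). Gad1 or Gad2, the enzymes of GABA synthesis, had reads in 13 members (16.7%, 9.18 to 26.8) against 23.9% (20.7 to 27.5). Of the members, 33 (42.3%, 31.2 to 54.0) had reads of neither Slc17a8, Gad1 nor Gad2, against 13.2% (10.6 to 16.0) of the other cells. Slc32a1, the vesicular GABA transporter, was found in 0 of 78 members, which allows a share of up to 3.85%, and in 1 other cell. Gad1 rested on 1 member, and without plate 63, which held it, its log2 ratio was -3.58 in place of -1.07.

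Neuropeptide genes were few. Only 5 of 37 were tested, and 3 were past the fold downward (median log2 ratio -1.22), against 1.8% of all genes tested. Adcyap1, which encodes PACAP, was at 14.4 CPM in the members and 34.8 CPM in the rest and was lower on all 9 plates. Trh, the precursor of thyrotropin-releasing hormone, had reads in 1 of 78 members against 6.18% of the other cells. Sst, somatostatin, named after its values were seen, had reads in 0 of 78 members (up to 3.85% allowed) against 3.17% of the others, which is within the limit that these cells allow. Gal and Pdyn, the other genes tested and also named after their values were seen, had log2 ratios of -0.63 and -0.70.

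Receptors for peptides and hormones were divided, with 2 of 17 tested past the fold upward and 4 downward (median log2 ratio -0.01). Over all genes tested, the shares were 0.657% upward and 1.8% downward. Calcr, the calcitonin receptor, had plate means of 0 to 151 CPM (median 83.2) in the members against 10.4 to 108 CPM (median 36.9), and the ranges overlapped. It was higher on 8 plates, with log2 ratios of only 0.08 on plate 52 and 0.07 on plate 63, and no member of plate 48 had a read. Against the rest set alone, at 42.5 CPM, the log2 ratio of Calcr was 1.21, and it was higher in the members on 5 of 9 plates. CALCR paired with RAMP1 makes a receptor for the peptide amylin. Reads of both genes were present in 31 of 78 members (39.7%, 28.8 to 51.5) against 6.18% (4.43 to 8.35) of the other cells. Taken singly, Calcr had reads in 56.4% and Ramp1 in 70.5% of members, against 24.5% and 47.2% of the rest set. Whether the 2 genes occur together more often than these shares give was not tested. Pth2r, the other higher gene, was at 5.17 to 67.4 CPM (median 21.8) by plate against 7.95 to 12.3 CPM (median 9.71), higher on 8 plates. Crhr2, a receptor of the CRF family, had a log2 ratio of -1.64, and Oxtr, the oxytocin receptor, one of -1.81, both lower on 8 plates. Tacr3, the neurokinin B receptor, had reads in 0 of 78 members (up to 3.85%) against 8.72% of the others, and Rxfp1, a relaxin receptor, in 6.41% against 33.0%. By set, Tacr3 had reads in 21.1% of the Zeb2 set and 14.9% of the Irx2 set. In the Npy2r and rest sets its shares were 0% and 1.89%, within the limit that the members allow. Rxfp1 had reads in 84.5%, 28.4%, 16.2% and 12.3% of the Zeb2, Irx2, Npy2r and rest sets. Hcrtr1, the orexin receptor gene, was named after its values were seen, with a log2 ratio of 0.74 that was above 0 on all 9 plates and means of 327 and 195 CPM. Its mean was higher in the Irx2 set, at 349 CPM, and was 243 CPM in the rest set.

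For amine receptors, 1 of 7 tested was past the fold upward (median log2 ratio 0.64), against 0.657% of all genes tested. This was Hrh1, the histamine H1 receptor, with plate means of 38.7 to 94.6 CPM (median 56.1) against 23.8 to 39.4 CPM (median 30.2). In the pDR dissection described below, the median of the same list was -0.23, with 0 of 8 genes tested past the fold upward. The log2 ratio of Hrh1 there was 0.76, above 0 on all 5 plates. On the 11 plates, the adrenergic receptor genes Adra2a and Adra2c had log2 ratios of 0.70 and 0.64, higher on 6 and 9 plates, and of 0.22 and 0.30 against the rest set alone. Of 4 acetylcholine receptor genes tested, Chrm2 and Chrm1 were past the fold downward. Of 19 GABA and glycine receptor genes, none was past the fold upward and 2 downward (median log2 ratio 0.08). Gabrq and Gabre were just short of it at 0.95 each, and the gamma subunit gene Gabrg3 was at 7.54 against 20.7 CPM. Of 18 glutamate receptor genes, 1 was past the fold upward and 2 downward (median -0.03). The upward one, named after its values were seen, was Grin3a, a subunit of NMDA receptors, with 11.8 against 3.19 CPM, higher on 8 plates. Among 7 tested receptors for purines, cannabinoids and other small molecules, 3 were past the fold downward and none upward (median -0.73), including the lysophosphatidic acid receptor Lpar1 at 13.3 against 51.2 CPM, lower on all 9 plates.

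Among ion channel genes, the counts of higher and lower genes stand beside the 0.657% and 1.8% of all genes tested. Of 39 potassium channel genes tested, 1 was past the fold upward and 3 downward (median log2 ratio -0.07), the upward one being Kcng4, named after its values were seen, with 18.2 against 8.53 CPM. Of 41 sodium, calcium, HCN, TRP and mechanosensitive channel genes, none was past the fold upward and 2 downward (median -0.06). One of these 2 was Piezo2, a mechanosensitive channel, at 0.330 against 11.7 CPM. It was at 51.2 CPM in the Zeb2 set and at 0.223 CPM in the rest set, against which the log2 ratio was 0.12.

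The counts of axon guidance and adhesion genes stand beside shares of 0.657% upward and 1.8% downward over all genes tested. Of 43 axon guidance genes, 1 was past the fold upward (Sema5a) and 7 downward (median log2 ratio -0.15), among them the netrin receptor gene Unc5d at 6.27 against 21.3 CPM, lower on all 9 plates, and Sema6d and Efna5 at log2 ratios of -1.24 and -1.42. Of 80 cadherin, protocadherin and synaptic adhesion genes, 6 were past the fold upward and 12 downward (median -0.11). Besides Nell1 and Pcdh10, the upward ones included Cdh11, which encodes a cadherin, at 10.9 to 42.3 CPM by plate (median 31.8) against 7.77 to 16.4 CPM (median 11.4). The largest downward ratio was that of C1ql3, which encodes a secreted synaptic organizer, at 1.82 against 25.6 CPM. Against the rest set alone, some genes of the lists above were no longer past the fold, with log2 ratios of -0.72 for Oxtr, -0.85 for Chrm1, -0.45 for Sema6d, 0.61 for Hrh1, 0.64 for Kcng4 and 0.88 for Cdh11.

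Of 59 transcription factor genes, 1 was past the fold upward and 8 downward (median log2 ratio -0.07), against 0.657% and 1.8% of all genes tested. Npas1 was the upward one. Nr2f2, which encodes the nuclear receptor COUP-TFII, was at 16.8 against 64.0 CPM and lower on all 9 plates, and the nuclear receptor gene Rorb was at 19.6 against 47.1 CPM and lower on 7. Bcl11b had reads in 1 of 78 members against 23.3% of the other cells, and its log2 ratio was -3.63, or -3.03 without plates 48 and 55. Of 27 growth factor, neurotrophic and Wnt genes, Dlk1 was past the fold upward and 4 downward (median 0.03), including the receptor tyrosine kinase gene Kit, with reads in 12 members (15.4%, 8.21 to 25.3) against 53.2% (49.3 to 57.2). Of 20 calcium-binding and neurofilament genes, none was upward and 2 downward (median -0.13), among them Prph, peripherin, at 7.05 against 21.3 CPM. Necab2, which encodes a neuronal calcium-binding protein, was at 415 against 220 CPM, a log2 ratio of 0.91.

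The lists that the study named for dorsal DR, ventral DR and MR or caudal DR cells had been chosen on these same cells and are not independent evidence. Of 4 dorsal genes tested, 2 were past the fold downward (median log2 ratio -0.92), against 1.8% of all genes tested. Of 7 ventral genes, Npas1 was past it upward and Slc17a8 and Crhr2 downward (median 0.03). Of 10 MR or caudal genes, Calcr was past it upward and 7 downward (median -2.08), namely Piezo2, Tacr3, Pou3f1, Grik1, Bcl11b, Rxfp1 and Cnr1, of which Pou3f1 had a log2 ratio of 0.62 against the rest set. The gate left out cells with Zeb2 or Irx2, which the study reports in MR or caudal DR clusters. Lower values of this list are therefore not separate from the choice of cells. In the pDR dissection described below, 2 of 4 genes of the list tested were past the fold upward and 1 downward (median 0.245). Immediate-early genes, which follow neuronal activity and also dissociation, were lower in 2 of 13 (Egr1 and Nr4a1, at 6.16 against 18.0 CPM and 5.52 against 17.2 CPM), with a median of -0.31, and Fos was at 112 against 191 CPM.

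Markers of other cell types were checked because the sort can carry glial RNA along. The 8 oligodendrocyte genes summed to 58.9 CPM per member and 223 CPM per other cell on average, with medians of 14.6 and 25.0 CPM, and Mag, Mal and Opalin had no read in any member. Mbp and Mobp, which encode myelin proteins, were past the fold downward, but a single other cell held 78600 CPM of these genes. Without plate 55 the log2 ratios of Mbp and Mobp were -0.37 and -0.08 in place of -1.77 and -1.12. Without plates 48 and 55 together, those of Mbp and Mobp were -0.28 and -0.05. Of the 8 microglial genes, 6 had no read in a member, among them Cx3cr1, Csf1r and Tmem119. The 8 astrocyte genes summed to 943 and 824 CPM, nearly all of it Aldoc, with 0 of 2 tested past the fold. Endothelial and mural genes summed to 0.130 CPM, oligodendrocyte precursor genes to 0.121 CPM, and genes of dopamine and noradrenaline neurons to 0.353 CPM in the members, and Slc32a1, Slc17a6, Slc6a5 and Slc17a7 had no read in a member. What part these differences had in the lower genes was not tested.

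Whether the members resemble each other in the rest of their transcriptome was asked with a principal component analysis of ln(CPM + 1) without the gate genes, in which the 15 nearest cells of each cell were counted on other plates only. On average 42.6% of the neighbours of a member were members, against 6.93% for the other cells and the 11.0% that members make up of all cells. Among the other cells, it was 13.3% in the rest set, and 6.34%, 4.51% and 0.376% in the Irx2, Npy2r and Zeb2 sets. The gate left out cells with Zeb2, Irx2 or Npy2r, so the excess over 11.0% is not separate from the choice of cells. For the members, the share was above 11.0% on all 9 plates. It ran from 15.6% on plate 55 and 23.3% on plate 48 to 54.2% on plate 57. Of the 78 members, 42 had members as at least 50% of their neighbours, and 9 had none. The next largest part of a member's neighbours, 37.7%, came from the rest set, and 0.256% came from the Zeb2 set. Of the 108 cells that missed on Npas3 alone, 20 also had at least 50% members among their neighbours.

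The members differed among themselves. Of the genes with a mean of at least 50 CPM in the members, Calcr, Fos, Nell1, Dlk1, Calb2, Fam114a1, Cd59a and Slc5a5 had the largest SD of ln(CPM + 1) over the 78 cells, from 2.04 to 2.54. Calcr had reads in 44 members (56.4%, 44.7 to 67.6) with a median of 46.9 CPM and a highest value of 427 CPM. Calb2, which encodes calretinin, had a median of 3.25 CPM and a highest value of 534 CPM.

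Nell1 and Rorb were seldom detected in the same member. Over the 78 cells, which share the gate and their plates, the Pearson correlation of ln(CPM + 1) was -0.76 between Nell1 and Rorb, -0.68 between Nell1 and Nr2f2, and 0.81 between Rorb and Nr2f2. After the plate means were taken out, the values were -0.73, -0.64 and 0.80. Nell1 correlated positively with Dlk1 (0.65) and Calcr (0.54), and Crhr2 correlated with Rorb (0.62) and inversely with Arhgap36 (-0.60). Of the 57 members with reads of Nell1, 7 had reads of Rorb, and of the 21 members without, 18 did.

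**Figure D3:**
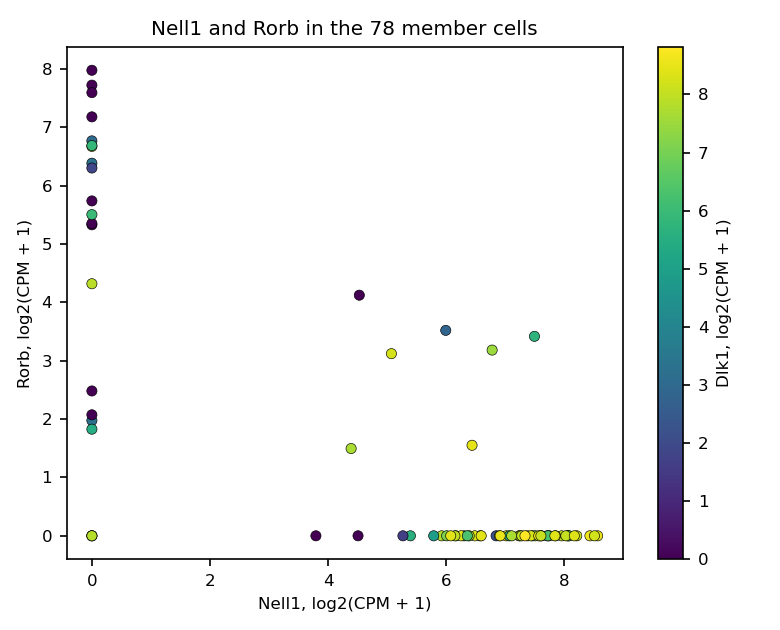
Nell1 (x axis) and Rorb (y axis) in each of the 78 members, both as log2(CPM + 1), with the colour of a point giving Dlk1 on the same scale. Of the 57 cells with Nell1, 50 lie on the lower edge without Rorb, and 18 of the 21 cells without Nell1 lie above 0 on the Rorb axis.

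The split by Nell1 was made after its values had been seen and is a description only. Members with and without Nell1 had similar depth, with medians of 784024 and 930724 reads and of 9159 and 9477 detected genes. The members without it had means of 70.2 CPM of Rorb, 55.6 CPM of Nr2f2, 38.8 CPM of Lpar1, 24.4 CPM of Crhr2 and 64.5 CPM of Slc17a8. In the members with Nell1 these were 0.983, 2.44, 3.83, 2.24 and 23.2 CPM. Rorb, Nr2f2 and Lpar1 were lower in the members with Nell1 on all 8 plates that held both kinds. The levels of Npas1 were 56.7 and 1.17 CPM with and without Nell1, of Calcr 127 and 25.0 CPM, of Dlk1 211 and 56.8 CPM, of Calb2 76.6 and 2.26 CPM, and of Fam114a1 67.2 and 5.77 CPM. Gabrq differed less between the 2 kinds, with means of 95.2 and 76.3 CPM and medians of 86.5 and 84.9 CPM. The means of Sln were 54.3 and 52.8 CPM, but its medians were 42.8 and 5.89 CPM, so that a few of the 21 cells carried the second mean. Zar1 had medians of 25.0 and 8.24 CPM, and Ramp1 had medians of 11.2 and 34.4 CPM. Tph2 and Slc6a4 were at 8040 and 9518 CPM and at 3556 and 3490 CPM. All 12 members with Gad2 reads had Nell1 as well.

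Members with Nell1 had members as 53.2% of their neighbours, and 41 of 57 had at least 50%. Members without it had 13.7%, close to the 11.0% that members make up of all cells and to the 13.3% found for cells of the rest set. Of these 21 members, 1 had at least 50%, while 28.3% of their neighbours were of the Irx2 set and 44.4% of the rest set. Plates 48 and 55, where the neighbour share of the members was lowest, held 1 member with Nell1 each, beside 3 and 2 without. Nell1 was among the genes of the components, so that this comparison is not independent of the split.

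**Figure D4:**
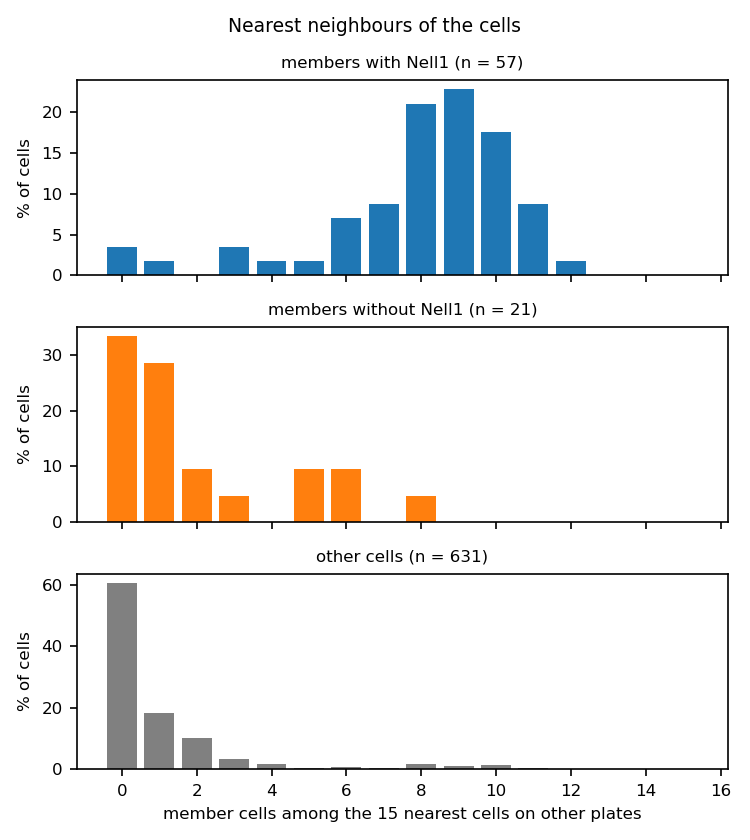
Number of members among the 15 nearest cells on other plates (x axis), as percent of cells (y axis), for the 57 members with Nell1, the 21 members without Nell1 and the 631 other cells. The first group peaks at 8 to 10 of 15, and the other groups peak at 0.

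The same gate was applied to the pDR dissection, whose plates the rule did not use, and 50 of its 290 cells passed (17.2%, 13.1 to 22.1), with 8, 18, 6, 8 and 10 cells on plates 12, 13, 25, 39 and 40. Dissection and plates cannot be told apart in this comparison. Of 10016 genes tested, 83 were past the fold upward (0.829%) and 105 downward (1.05%). Of the 62 genes higher in the members of the 11 plates that were also tested in the pDR, 60 had the same sign there and 29 were past the fold, and of 136 lower genes tested 121 had the same sign and 56 were past the fold. None of either was past the fold in the other direction. All 25 leading higher genes had the same sign, 9 of them past the fold and 17 with the same sign on all 5 plates. Among the 15 leading lower genes, 13 had the same sign, 7 of them past the fold and 6 with the same sign on all 5 plates. Of these 15, Pter, Cxcl12 and C1ql3 were below the minimum of 5 CPM in both sets of the pDR, so that their signs there rest on low values.

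Npas1 was at 46.7 CPM in the gated cells of the pDR and 2.88 CPM in the rest, higher on all 5 plates. Nell1 was at 117 and 48.8 CPM, Dlk1 at 262 and 97.2 CPM, Calcr at 181 and 71.5 CPM, and Sema5a at 96.7 and 19.7 CPM, each on all 5 plates. Gabre and Gabrq, which were just short of the fold in the first comparison, had log2 ratios of 2.12 and 1.86 in the pDR. Slc17a8 was at 16.4 and 99.1 CPM, lower on all 5. Zar1, the first of the leading genes, was at 16.0 and 11.0 CPM and higher on 4 plates. Trh differed, with 101 CPM in the gated cells of the pDR and 124 CPM in the rest, against 0.558 and 14.1 CPM on the 11 plates, and Gad1 was at 95.1 and 172 CPM. Reads of Nell1 were present in 33 of the 50 gated cells. Rorb, which marked the members without Nell1 on the 11 plates, was at 0.990 CPM with and 3.77 CPM without Nell1 in the pDR, and Nr2f2 at 0.149 and 9.44 CPM. Slc17a8 had the other direction there, with 22.9 CPM with and 3.94 CPM without Nell1 against 23.2 and 64.5 CPM on the 11 plates. Crhr2 was at 1.87 and 1.60 CPM in the pDR, against 2.24 and 24.4 CPM on the 11 plates.

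**Figure D5:**
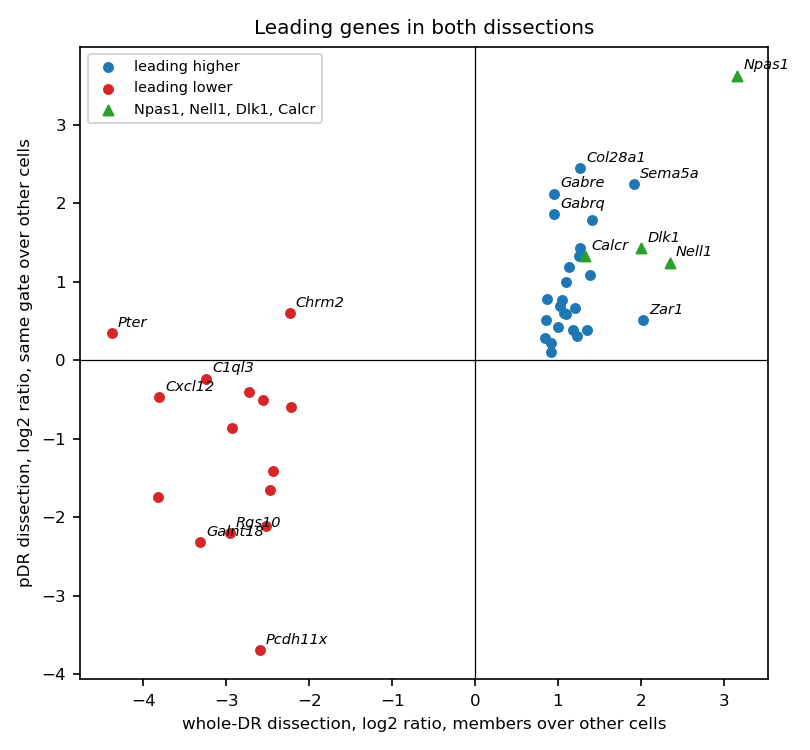
Log2 ratio of mean CPM + 1 of gated cells over other cells on the 11 plates (x axis) and in the pDR dissection (y axis) for the 25 leading higher genes, the 15 leading lower genes, and Npas1, Nell1, Dlk1 and Calcr, which are marked as triangles. All 25 higher genes lie above 0 on both axes, and Chrm2 and Pter are the 2 lower genes above 0 on the y axis.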

How the data were processed

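The authors sorted tdTomato-positive cells, made 1 Smart-seq2 library per cell, aligned reads to mm10 with STAR 2.6.1a, counted reads on genes with HTSeq 0.11.2 in its unstranded mode, took out Y-linked genes, and deposited the values as CPM without a log. Genes that overlap on opposite strands therefore share reads. The table holds 999 of 1536 labelled cells, and the other 537 were not analysed here. No column was left out. In each cell all values above 0 were whole multiples of what 1 read is worth (within 0.001 reads), which gave the reads per cell, and no 2 cells had identical values. No count test was run, since the labels tie no cell to an animal and each dissection was treated as 1 sample. Cells were sorted singly, and no doublet caller was run.

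Means over cells were compared as log2 ratios with a pseudocount of 1 CPM, over genes with a mean of at least 5 CPM in one set. Named genes are the 25 highest and 15 lowest by log2 ratio with a mean of at least 20 CPM in the higher set and the same sign on all 9 plates with at least 3 members and 3 other cells, up to 6 genes per list past the fold with that mean, all genes of lists of at most 20 genes, and the 8 genes with the largest SD among members. The members and lists were chosen with earlier results of these data known. Principal components (20) were computed from 25517 genes. Intervals are Clopper-Pearson at 95% and, like the limit of 3 cells where none had a read, cover counting error only. Coordinates are from GENCODE M21. The steps were tested on simulated data. Python 3.11.15, NumPy 2.4.6, pandas 2.3.3, SciPy 1.17.1 and matplotlib 3.10.9 were used. Alternatives were other pseudocounts, minimums, gates, depths, averages, plates left out, and numbers of components and neighbours. A few genes of the lists are not reported here.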

Additional observations from a re-analysis of the deposited data

Results flagged for a closer look

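The M2 receptor gene Chrm2 had opposite directions in the 2 dissections. Its log2 ratio of members over other cells was -2.24 on the 11 plates, with all 9 plates that could be compared below 0, and 0.60 in the pDR dissection, with all 5 plates above 0. The difference between the dissections was not tested. The means were 14.0 and 69.6 CPM on the 11 plates and 22.7 and 14.7 CPM in the pDR. On the 11 plates the Zeb2 set had 274 CPM of Chrm2, and against the rest set, which holds no such cells, the log2 ratio was 0.02. Against the Npy2r set, with 4.85 CPM, Chrm2 was higher in the members on all 9 plates, and reads of it were present in 59.0% of members against 47.2% of all other cells.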

How the results depend on the processing

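The counts of 65 higher and 178 lower genes were within 1.5 times of themselves when each plate was left out in turn (55 to 74 higher and 172 to 191 lower), with plates weighted equally, with a pseudocount of 0.1 CPM, after thinning, without the highest cell of each set, and under the stricter and looser gates. They were 13 and 55 with a pseudocount of 10 CPM, 100 and 360 without a minimum, and 32 and 73 with a minimum of 20 CPM. The higher genes were 161 with the difference of mean ln(CPM + 1) and 31 against the rest set alone, of which 54 and 26 were among the 65. Members were 6.91% of cells with the stricter gate (10 CPM of Npas3 and 40 CPM of Htr1d) and 17.5% with the looser one (1 read of each). After thinning to 250000 reads, 64 of the 77 members deep enough still passed the gate. In the pDR, 5 in place of 9 leading higher genes were past the fold with a pseudocount of 10 CPM. Of 2160 recomputed log2 ratios of 90 single genes, 2059 moved by less than the SD over plates. The sign of 3 lower genes turned against the rest set, to 0.021 for Chrm2, 0.12 for Piezo2 and 0.62 for Pou3f1, and that of 2 turned with the difference of mean ln(CPM + 1), to 0.24 for Mobp and 0.21 for Grik1. The causes were not tested. Adding up reads in place of averaging cells, and leaving out plates 48 and 55, were chosen after seeing the data and gave 58 and 161, and 59 and 174 genes. The neighbour share of the members was 42.0% to 46.0% under the other settings. No paired analysis was possible because no cell is tied to an animal and the replicate numbers pair no samples across the dissections. Members and other cells share plates, and their ratios within plates are given in the report without a test. With as few as 2 reads of Npas3 in a member, cells near that threshold were assigned with little depth.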
